A study of Mus musculus with 124 samples.

Results

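Cytosolic ribosomal protein genes were followed in T cells, B cells and monocytes sorted from mouse blood. Members are the rows of the count table whose symbol is Rpl or Rps with a number, alone or with a closing a, l or x, together with Rps3a1, Rpsa, Rplp0, Rplp1 and Rplp2. The rule found 84 genes among 53465, of which 81 are annotated as protein coding. Rps4l, Rpl6l and Rpl32l are not. The rule used names only and no measured value.

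The ribosome has a small and a large subunit, and each is an RNA scaffold with 1 copy of most of these proteins. Names starting with Rps mark proteins of the small subunit and names starting with Rpl those of the large one, while Rplp0, Rplp1 and Rplp2 form the stalk that recruits elongation factors. Their mRNAs mostly begin with a C followed by a run of pyrimidines, through which growth signals acting on mTORC1 set how much of them is translated. Resting blood lymphocytes hold few ribosomes and build them up when they are activated.

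The mice were of the outbred CD1 stock. EtOH samples came from offspring of dams given ethanol by intraperitoneal injection at 4 g/kg, as a 25% solution in PBS, on embryonic days 16 and 17, and PBS is the label of their controls. The CBM samples carry that label alone, which the labels do not spell out. The protocol text also describes dams made diabetic with streptozotocin in citrate buffer, but ties no sample to it. Blood was drawn on postnatal days 35 to 40 and the 3 cell types were sorted by flow cytometry. T cells came as 6 PBS, 9 EtOH and 12 CBM samples, B cells as 8, 8 and 13, and monocytes as 8, 8 and 13. All PBS and EtOH samples are labelled batch 1 and all CBM samples batch 2, so CBM and its batch cannot be told apart. Titles of PBS and EtOH samples carry a running number and those of CBM samples a CBM number that returns across the cell types, and samples are named by these numbers.

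Sample totals ranged from 0.328 to 8.28 M counts (M, 1000000 counts) with a median of 4.37 M. 13 samples went against their sex label by their sex-linked genes and 2 against their cell type. T marker genes summed to 12046 counts per 1000000 (CPM) in PBS monocyte sample 17, where monocyte markers summed to 505 CPM. In EtOH T cell sample 29, monocyte markers summed to 29363 CPM and T markers to 403 CPM. 14 of these 15 samples were of batch 1, and comparisons are given with and without them. EtOH T cell sample 23 held only 0.328 M counts. CBM B cell sample 10 and CBM monocyte samples 10 and 11 stood apart by their summed share of ribosomal protein counts (3.99%, 2.01% and 3.24%). Neutrophil markers summed to 38286 CPM and mitochondrially encoded genes took 4.11% of counts in CBM monocyte sample 11. Neutrophil markers were not particular to that sample, with 5274 to 60381 CPM (median 12258) in CBM monocytes. Their medians were 11919 CPM in PBS monocytes and 15052 CPM in EtOH monocytes. Natural killer (NK) cell markers summed to 1201 to 5008 CPM in CBM monocytes. Whether the samples of a group came from separate animals is not stated, so p-values measure the spread between these samples.

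The first bases of the transcripts are shown because the pyrimidine run at the start is what the family's mRNAs share. RefSeq (GRCm38.p6) held a promoter entry for 62 of the 84 members. A C followed by 4 or more bases that were all C or T stood at the annotated start in 14 of the 62 (22.6%), against 813 of 27025 genes (3.01%). Each line gives 10 bases before the annotated start and 20 from it, and capitals mark the run where there is one. The first 8 genes have the run. They include Rps27, among the highest members per kilobase, Rps6, a target of the S6 kinases, and Rpl35a, whose differences are described below.
Rps27, chr3:90213629-90213658, minus strand: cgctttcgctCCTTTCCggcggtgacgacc
Rps6, chr4:86857348-86857377, minus strand: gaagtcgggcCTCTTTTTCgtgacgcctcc
Rps18, chr17:33955646-33955675, minus strand: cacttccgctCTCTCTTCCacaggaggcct
Rps10, chr17:27635225-27635254, minus strand: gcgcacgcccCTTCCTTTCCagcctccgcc
Rpl35, chr2:39005112-39005141, minus strand: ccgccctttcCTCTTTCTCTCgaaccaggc
Rpl28, chr7:4792955-4792984, plus strand: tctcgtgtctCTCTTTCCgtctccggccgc
Rplp2, chr7:141447641-141447670, plus strand: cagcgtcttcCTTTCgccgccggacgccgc
Rpl35a, chr16:33056472-33056501, plus strand: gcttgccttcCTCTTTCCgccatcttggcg

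The next 6 lack the run at the start that RefSeq gives. Rps27l, Rpl3l and Rpl10 are shown because their levels went against the rest of the family, and Rpl12, Rpl37a and Rpsa because their values are given in full further on.
Rps27l, chr9:66946076-66946105, plus strand: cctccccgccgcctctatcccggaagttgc
Rpl3l, chr17:24727816-24727845, plus strand: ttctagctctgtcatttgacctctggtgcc
Rpl10, chrX:74270806-74270835, plus strand: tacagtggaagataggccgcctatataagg
Rpl12, chr2:32961702-32961731, plus strand: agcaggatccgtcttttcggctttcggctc
Rpl37a, chr1:72711250-72711279, plus strand: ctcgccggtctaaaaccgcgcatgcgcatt
Rpsa, chr9:120127756-120127785, plus strand: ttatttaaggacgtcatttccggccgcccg
A missing run says only that these letters are not at this annotated base. CCGGAAG, the core that ETS factors bind, was found on either strand in 26 of the 62 promoters (41.9%) from 250 bases before to 50 after the start, against 9.93% of all genes. AAGATGGC, the core of the YY1 motif, was in 5 (8.06%) against 3.19%, and TATAA from 40 to 16 bases before the start in 4 (6.45%) against 4.22%. Rpl35a has the run and AAGATGGC, Rps6 the run and CCGGAAG, and Rps27l, Rpsa and Rpl26 have CCGGAAG alone.

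The 84 genes together took between 0.410% and 4.08% of all gene counts. In T cells their summed share was 1.63% ± 0.289 (SD, n = 6) with PBS, 1.15% ± 0.355 (n = 9) with EtOH and 3.18% ± 0.678 (n = 12) in CBM. In B cells it was 0.954% ± 0.184 (n = 8), 0.825% ± 0.0957 (n = 8) and 2.35% ± 0.580 (n = 13), and in monocytes 0.629% ± 0.217 (n = 8), 0.508% ± 0.0863 (n = 8) and 1.43% ± 0.620 (n = 13). The CBM samples of T cells (2.06 to 4.08%) and of B cells (1.84 to 3.99%) all lay above the PBS samples of the same cells (up to 2.04% and 1.26%). In monocytes the lowest CBM sample (0.811%) was below PBS sample 17 (1.12%), the one that carries T cell markers. Within each treatment T cells had the highest mean share and monocytes the lowest. In bulk samples a difference in cells of a type cannot be told apart from a difference in RNA per cell.

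**Figure D1:**
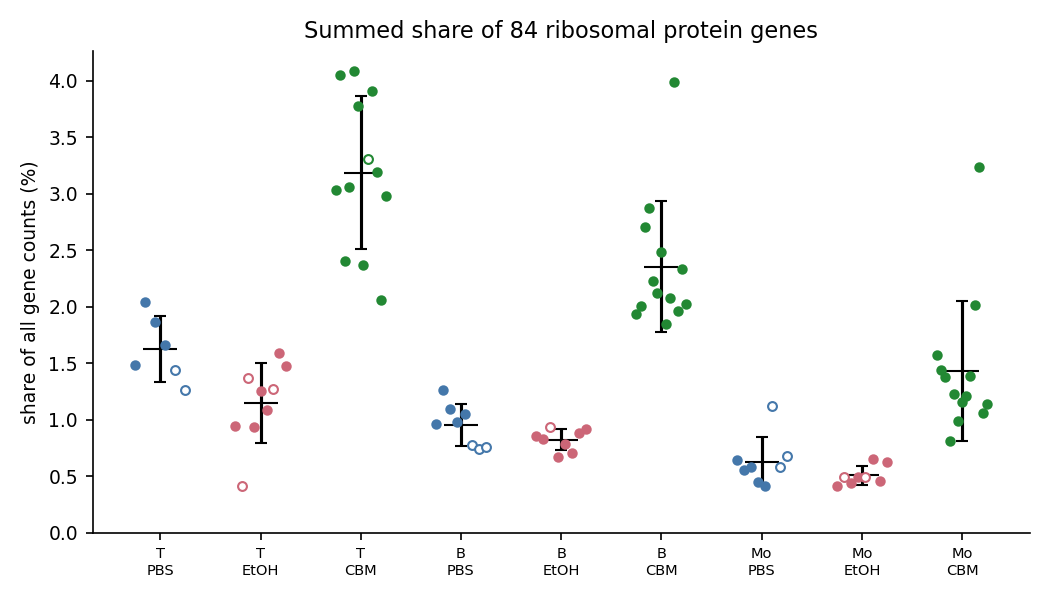
Share of all gene counts (%) taken by the 84 ribosomal protein genes by cell type and treatment, one point a sample, open where the sample goes against a label, with bars for mean and SD. All CBM samples of T and B cells lie above the PBS and EtOH samples of the same cell type, and the lowest EtOH T cell sample (0.416%) is sample 29, which carries monocyte markers; the next lowest is at 0.935% and the lowest PBS T cell sample at 1.26%.

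A few genes carried much of this share. The 10 most abundant members held 38.2 to 43.9% of it in the 9 groups. Per kilobase of transcript, Rps27 was the highest in CBM B cells with a median of 1584 CPM per kb, ahead of Rpl32 with 1497, while the median member stood at 235. Rps14 was highest in CBM monocytes with 845 CPM per kb against a median member of 135. At the other end, Rpl10l and Rpl39l, retrogene copies of Rpl10 and Rpl39 known for expression in testis, had a median of 0 in CBM B cells. Rpl10l and Rpl39l failed the filter on low counts in all 21 comparisons, Rps4l in 20, Rpl24 in 19, Rpl29 in 14, Rpl3l in 10, Rpl32l in 7 and Rpl6l in 2. The other 76 members were tested in every comparison.

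Ribosomal protein genes have many near-identical copies elsewhere in the genome. Of all stretches of 50 bases in a member's transcript, which is the length of a sequenced end, a median of 43.55% matched no other annotated transcript, and 52 of the 84 members were under 50%. The share was 1.35% for Rps27 and 7.87% for Rpl10, but 77.6% for Rps27l and 100% for Rpl3l. Levels of members with a low share are uncertain, since counts could be split among copies or lost.

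Between EtOH and PBS over all samples, no member was called in any cell type by edgeR's quasi-likelihood F test, with Benjamini-Hochberg adjustment over all genes tested and a threshold of 0.05. The background was also nil, with 0% of all genes called lower in each cell type. In T cells 77 of the 79 members tested had a negative difference, with a median of -0.50 (log2) against 0.06 for all genes, and 56 had an unadjusted p under the threshold as did 1183 of 12750 genes (9.28%). In B cells the median was -0.25 with 19 of 77 members past the unadjusted threshold, against 7.69% of all genes, and in monocytes -0.21 with 6 of 78, against 3.30%. The unadjusted counts moved with the samples and the scaling. They ran from 14 to 62 in T cells, 4 to 38 in B cells and 4 to 12 in monocytes with each sample left out in turn. Total count scaling gave 18 in T cells and 10 in B cells. The shares of all genes past the unadjusted threshold in these fits are not given here. These counts therefore show only how the members moved. The DESeq2 test called 3 members lower in T cells and 0 in both other cell types, and its share of all genes is not given here.

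With the 15 samples that go against a label left out, members fell in T and B cells. In B cells (7 EtOH, 5 PBS) 32 of 78 members were lower and 0 higher, which is 41.03% of the members against 2.95% of all 12478 genes called lower. In T cells (6 EtOH, 4 PBS) 4 of 80 were lower, or 5.00% against 1.01% of 13322 genes. DESeq2 called 27 there, a count given without the share of all genes that it called. In monocytes (6 EtOH, 5 PBS) edgeR called 0 of 78 members, against 0.0797% of genes called lower, and DESeq2 also called 0. Without adjustment 7 of the 78 members passed the threshold there, against 13.1% of all genes. The median differences of the members were -0.63 in T cells, -0.53 in B cells and -0.16 in monocytes, and the medians of all genes were 0.00, 0.01 and 0.02. Whether the effect differed between cell types was not tested.

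These calls rest on which samples are kept, and leaving samples out was decided with earlier results of these data known. The 3 PBS B cell samples left out had summed shares of 0.744 to 0.779%, under all 5 that were kept (0.963 to 1.26%), and the 2 PBS T cell samples left out had 1.26 and 1.44%, under the 4 kept (1.49 to 2.04%). The EtOH B cell sample left out had 0.936%, above the 7 kept (0.671 to 0.920%). Females were 6 of the 7 EtOH and 2 of the 5 PBS B cell samples kept, and 5 of 6 and 2 of 4 in T cells. Sex was a term in these fits. Without PBS sample 5 or PBS sample 8, the 2 PBS females kept, the B cell count fell to 0. It was 51 without EtOH sample 30, 8 without sample 42, 10 without sample 24, 12 without sample 39, 18 without sample 51 or 54, 15 without PBS sample 10 and 14 without PBS sample 13. In T cells the count was 0 without PBS sample 4 and 1 without PBS sample 7, the 2 PBS females kept. It was 2 without PBS sample 12, EtOH sample 38 or EtOH sample 41, and 7 without EtOH sample 50 or 53. The shares of all genes called in these fits are not given here, so the counts show only how the calls of members moved. With each sample left out in turn the median of the members stayed between -0.68 and -0.39 in B cells and between -0.84 and -0.51 in T cells.

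Other measures moved between the same samples, and their part in the result was not tested. In B cells mitochondrially encoded genes took 0.717 to 1.06% of counts with EtOH and 0.982 to 1.18% with PBS. Genes of odour and pheromone receptors, a measure of background reads, summed to 168 to 1470 CPM with EtOH and 46.7 to 423 with PBS. Erythroid markers summed to 631 to 5591 CPM with EtOH and 1123 to 10288 with PBS, and 4 of the 7 tested were called lower, with a median of -1.92 and all 7 negative. In T cells the B cell markers summed to 730 to 948 CPM with EtOH and 498 to 5422 with PBS, cycling markers to 148 to 1949 and 41.2 to 107, and erythroid markers to 389 to 2238 and 674 to 6944. There too 4 of 7 erythroid markers were called lower, with a median of -2.27. T cell totals were 0.328 to 5.78 M with EtOH and 4.54 to 5.59 M with PBS. None of the markers of these lists was at 0 in every sample of a group.

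Rpl35a, a large subunit protein whose human counterpart is mutated in some patients with Diamond-Blackfan anaemia, had the largest fall in T cells (chr16:33056453-33060189, plus strand). Its level was 53.6, 80.8, 49.8 and 37.9 CPM in the 4 PBS samples, and 12.9, 16.6 and 25.4 CPM as the lowest, median and highest of 6 EtOH samples. The groups did not overlap. The difference was -1.83 (log2, SE 0.25, adjusted p = 0.00378 by edgeR's quasi-likelihood test) and lay between -2.01 and -1.58 with each sample left out, with the call lost without PBS sample 4. EtOH T cell sample 32, which goes against its sex label and was left out, stood at 60.3 CPM, inside the PBS range. With all samples the difference was -1.13 (SE 0.33, adjusted p = 0.515). In B cells Rpl35a was 33.4, 55.5, 33.8, 28.996 and 26.9 CPM in the 5 PBS samples. The 7 EtOH samples ran from 13.6 to 39.8 CPM with a median of 15.5, and 6 of the 7 were below every PBS sample. The difference there was -1.24 (SE 0.28, adjusted p = 0.0298). In monocytes it was -1.16 (SE 0.35, adjusted p = 0.178) and not called. In CBM samples Rpl35a stood at 2 levels that went with the CBM number, as described further on. Whether a split of that kind between these outbred mice falls unevenly on the EtOH and PBS samples was not tested.

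Rplp1, an acidic protein of the stalk, was 194, 337, 248 and 223 CPM in the 4 PBS T cell samples and 84.8 to 156 CPM (median 123) in the 6 EtOH samples. No EtOH sample reached the PBS range, and the difference was -1.25 (SE 0.21, adjusted p = 0.0145). The call was lost without PBS sample 4 (-1.08, adjusted p = 0.167) or PBS sample 7 (-1.32, adjusted p = 0.0954). Rplp1 also fell in B cells, where the groups overlapped (101 ± 27.0 with PBS, 59.2 ± 16.7 with EtOH, log2 difference -0.98, adjusted p = 0.0266). Its stalk partners had smaller differences. Rplp2 was -0.66 in T cells (adjusted p = 0.0582) and -0.47 in B cells (adjusted p = 0.0799), neither called, and Rplp0 was -0.67 in T cells (adjusted p = 0.142) and fell by 0.54 in B cells (adjusted p = 0.0335).

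Rpl37a, a zinc-binding protein of the large subunit, was 138, 197, 161 and 157 CPM with PBS in T cells and 45.7 to 119 CPM (median 82.1) with EtOH, again with no overlap (log2 difference -1.08, SE 0.22, adjusted p = 0.0319). This call was lost in 5 of the 10 fits that leave out 1 sample (adjusted p up to 0.291, without PBS sample 4), with total count scaling (-0.92, adjusted p = 0.0598) and with the filter given the design (-1.12, adjusted p = 0.0567). Rpsa, a small subunit protein also known as a laminin receptor, was 180, 218, 244 and 184 CPM with PBS and 82.3 to 159 CPM (median 128) with EtOH (-0.89, SE 0.19, adjusted p = 0.0374). Its call in T cells was lost in 6 of the 10 fits that leave out 1 sample, with an adjusted p of up to 0.411 without PBS sample 7 (-0.79) and of 0.0518 without the shallow EtOH sample 23 (-0.82). It was also lost with total count scaling (-0.72, adjusted p = 0.0802) and with the filter given the design (-0.94, adjusted p = 0.0733). In B cells Rpsa had the lowest p of the family. Its 5 PBS samples were at 109, 122, 116, 117 and 105 CPM, and its 7 EtOH samples ran from 53.1 to 93.3 CPM with a median of 64.1. The groups did not overlap and the difference was -0.82 (SE 0.16, adjusted p = 0.0186).

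Small and large subunit genes were both among the 32 members that fell in B cells. Rps18 was 127 ± 17.96 CPM with PBS (SD, n = 5) and 93.3 ± 8.61 with EtOH (n = 7, log2 difference -0.58, adjusted p = 0.0198). Rps27 was 254, 317, 280, 266 and 289 CPM with PBS, and with EtOH at least 123, at most 233 and at the median 174 CPM (-0.77, adjusted p = 0.0215). Rpl11, which binds Mdm2 when ribosome assembly is disturbed, was 79.8 ± 11.3 and 56.1 ± 4.94 CPM (-0.63, adjusted p = 0.0215). Rpl3 (-0.64), Rpl4 (-0.59), Rpl37 (-0.61) and Rpl14 (-0.60) fell by similar amounts. Against the direction of the set stood Rps3a1 (0.07) and Rpl5 (0.05) in B cells and Rpl24 (0.46), Rpl3l (0.41) and Rpl21 (0.02) in T cells, none of them called. Of members with the pyrimidine run at the start 8 of 14 fell in B cells, with a median of -0.55, and of those without it 17 of 44, with a median of -0.51.

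**Figure D2:**
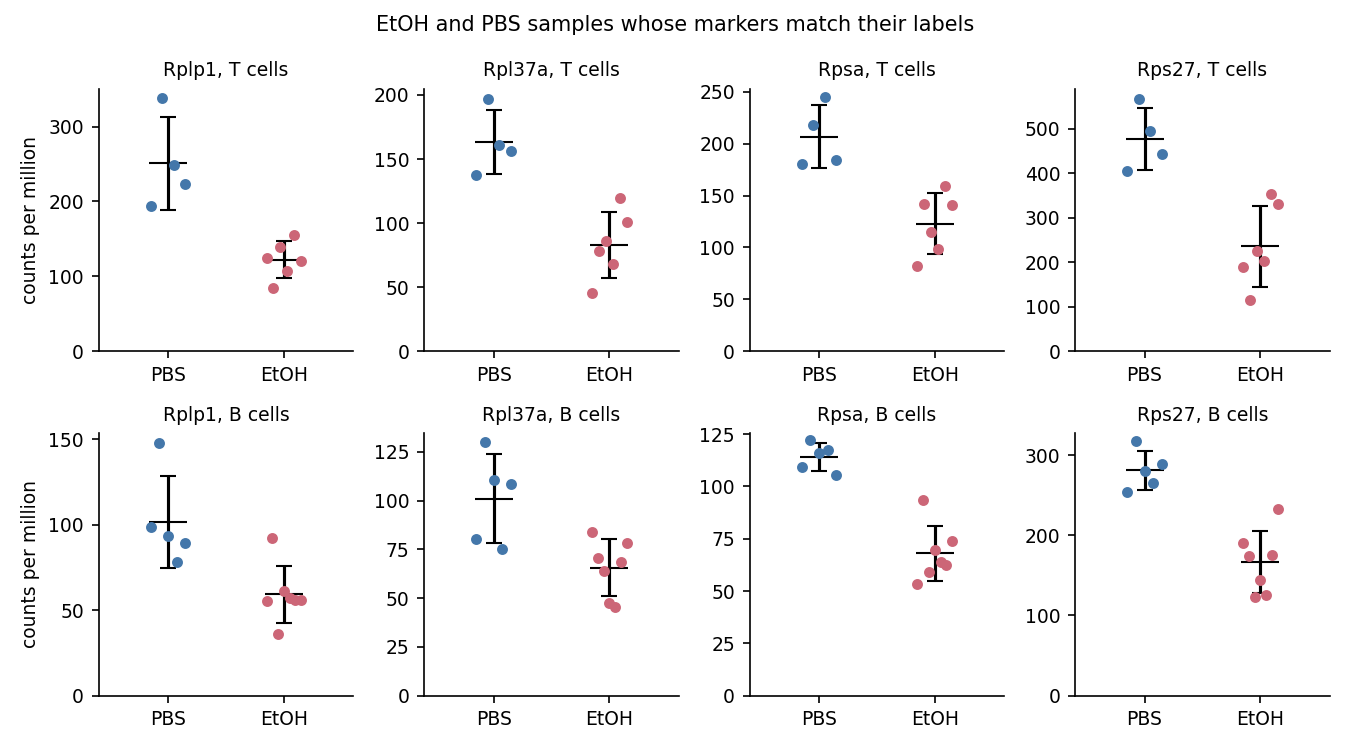
Level of Rplp1, Rpl37a, Rpsa and Rps27 (CPM, linear axes from 0) in the PBS and EtOH samples whose markers match their labels, T cells above and B cells below, one point a sample, with bars for mean and SD. In T cells the EtOH samples of Rplp1 (84.8 to 156 CPM) lie under all PBS samples (194 to 337 CPM), and in B cells those of Rpsa (53.1 to 93.3 CPM) under all PBS samples (105 to 122 CPM).

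Other genes of protein synthesis are set here against the 2.95% of all genes called lower in that B cell comparison. 1 of 18 translation factors whose mRNAs are of the same class fell, the elongation factor Eef1a1 (-0.58, adjusted p = 0.0361). 2 of 30 ribosome assembly genes fell, Tsr1 (-0.54) and Rrs1 (-0.66), and 2 of 77 mitochondrial ribosomal protein genes, Mrpl27 (-0.90) and Mrps34 (-0.77). Of the 53 named ribosomal protein pseudogenes tested 4 fell, with a median of -0.39. In T cells 2 of 64 pseudogenes fell and 0 genes of the other lists, where 1.01% of all genes were lower. Counts this small are given as a description.

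CBM samples had higher ribosomal protein levels than PBS samples in all 3 cell types, in a comparison that is also one between batches. In T cells 61 of 79 members were higher (77.2%) against 23.1% of all 14896 genes, and 2 lower (22.1% of all genes). In B cells 69 of 79 were higher (87.3% against 16.9%) and 1 lower (19.4% of all genes), and in monocytes 70 of 79 were higher (88.6% against 11.3%) and 0 lower (14.1% of all genes). Median differences were 0.77, 1.15 and 1.31 (log2), and those of all genes 0.04, 0.06 and -0.01. Without the samples against a label 49 of 82 members were higher in T cells (59.8% against 23.2% of genes), 63 of 80 in B cells (78.8% against 25.5%) and 67 of 79 in monocytes (84.8% against 8.57%). Mitochondrially encoded genes took more of the counts in CBM too (medians of 1.45 against 1.22% in T cells, 1.50 against 1.01% in B cells and 0.673 against 0.457% in monocytes), and cycling markers summed to 56.4 to 1783 CPM in CBM T cells and 41.2 to 549 in PBS T cells. Markers of other cells differed as well. In T cells 13 of 13 B cell markers were lower in CBM (median -2.78, summed 349 to 834 CPM against 498 to 5422) and 8 of 13 monocyte markers higher (median 1.95, 510 to 3563 CPM against 317 to 771). In monocytes 14 of 15 T markers were lower (median -2.68, 153 to 988 CPM against 251 to 12046), 8 of 14 B markers (median -1.51) and 4 of 6 platelet markers (median -2.01). In B cells 3 of 13 T markers and 2 of 7 erythroid markers were lower. The part of these measures in the result was not tested.

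Rpl39, Rpl37a and Rpsa were among the 6 members of lowest p in each cell type. Rpl39, a small protein lining the exit tunnel, was 213 ± 55.2 CPM in CBM T cells (n = 12) and 49.6 ± 10.8 in PBS (n = 6), a difference of 1.88 (SE 0.20). It was 2.33 in B cells and 2.72 in monocytes, with no overlap of the groups in any of the 3. Rpl37a ran from 408 to 1016 CPM in CBM T cells and from 89.7 to 197 CPM in PBS, a difference of 1.96, and differed by 2.39 and 2.43 in B cells and monocytes. Rps2, a small subunit protein near the mRNA entry, was 77.7 ± 14.1 CPM in CBM monocytes and 11.4 ± 3.56 in PBS (2.67). Rpsa differed by 1.63, 1.89 and 1.94. The stalk proteins again differed unequally, with Rplp0 at 0.45, 0.69 and 0.74 and Rplp2 at 1.15, 1.55 and 1.58 in the same order. Across the 79 members the difference was only weakly related to transcript length (Spearman -0.14, -0.15 and -0.16) or to the share of unshared sequence (0.06, 0.14 and 0.11); these are descriptions over genes that share libraries.

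Few members went the other way. In T cells Rpl17 fell, from 13.8 to 25.1 CPM (median 22.3) with PBS to 5.92 to 20.8 CPM (median 15.04) in CBM (log2 difference -0.77, SE 0.25, adjusted p = 0.0157). Rpl10, which joins the large subunit late in its assembly, fell by 0.41 (SE 0.15, adjusted p = 0.0276). Both groups overlapped for each gene. Scaled by total counts alone, which moved the median of all genes from 0.04 to 0.26, neither was called (-0.53 and -0.17). With edgeR and a minimum count of 50, Rpl10 lost its call too (-0.29, adjusted p = 0.0790). In B cells Rps27l was lower (-0.42, SE 0.16, adjusted p = 0.0353), with overlapping groups, and it lost the call with DESeq2 (-0.37, adjusted p = 0.0538). With edgeR its call was also lost under DESeq2 size factors (adjusted p = 0.0547) and total count scaling (-0.22, adjusted p = 0.191). The same held with no filter on low counts (adjusted p = 0.136) and with a minimum count of 50 (adjusted p = 0.0961). Negative but not called in T cells were Rpl35a (-1.04, adjusted p = 0.0754), Rps6 (-0.12), Rpl21 (-0.10) and Rps27l (-0.03). In B cells these were Rpl35a (-0.48), Rpl21 (-0.37), Rpl10 (-0.19) and Rpl17 (-0.16), and in monocytes Rpl17 (-0.61), Rpl21 (-0.37) and Rpl10 (-0.04).

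**Figure D3:**
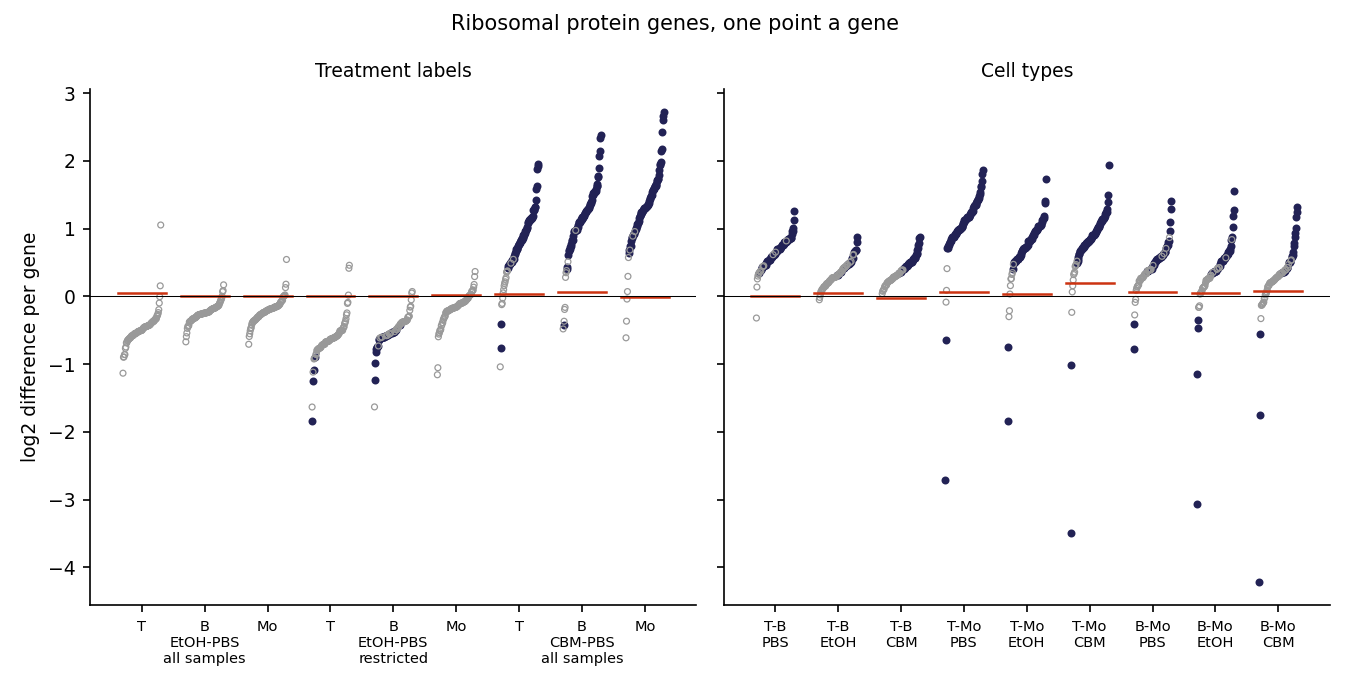
Log2 difference of each tested ribosomal protein gene, one point a gene, filled where called, between treatments (left) and cell types (right); red lines are medians of all genes, and restricted means without the samples against a label. Members lie mostly below 0 for EtOH (median -0.63 in restricted T cells), above 0 in CBM against PBS (medians 0.77 to 1.31) and above 0 in T cells against monocytes (medians 0.75 to 1.10).

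Other lists of protein synthesis genes are read against the shares of all genes, which were 23.1%, 16.9% and 11.3% higher and 22.1%, 19.4% and 14.1% lower in CBM T cells, B cells and monocytes. Of 18 translation factors 9, 11 and 13 were higher in T cells, B cells and monocytes and 0, 1 and 1 lower, among them the elongation factors Eef2 (1.21, 1.35 and 1.64) and Eef1a1 (0.95, 1.13 and 1.23). Of 6 ribosomal protein genes outside the rule 2, 4 and 4 were higher, including Rack1 (0.93, 1.19 and 1.46) and Fau (0.79, 1.18 and 1.28). Of 30 ribosome assembly genes 0 were higher in any cell type and 10, 8 and 4 lower, such as the nucleolar GTPase Gnl3 (-0.99, -1.10 and -0.99) and Nop58 (-0.72, -0.54 and -0.86). Of 77 mitochondrial ribosomal protein genes 5, 7 and 7 were higher and 17, 12 and 2 lower. Of 10 regulators of ribosome synthesis 1, 1 and 3 were higher and 4, 2 and 3 lower. Among these 10, Larp1, which binds the pyrimidine run, was lower (-1.49, -1.26 and -0.57).

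The cell types were compared within each treatment, so that batch and treatment were the same on both sides. Consecutive PBS and EtOH numbers often run through the cell types under the same sex label, so samples may be matched. A replicate block was fitted for CBM alone, as an alternative, and all other fits treat samples as independent. T cells had higher ribosomal protein levels than monocytes for nearly all members tested. The count of members called higher was 67 of 80 in CBM (83.8% against 32.8% of all genes), 74 of 79 with PBS (93.7% against 20.3%) and 66 of 77 with EtOH (85.7% against 21.9%). 2 members were lower in each treatment, where 24.4%, 23.5% and 23.2% of all genes were lower. Median differences were 0.82, 1.10 and 0.75 (log2), and those of all genes 0.20, 0.07 and 0.03. 62 of the 77 members tested in all 3 treatments were called higher in each (14.4% of 11900 genes were) and 73 had a positive difference in each, while 2 were called lower in each (17.6% of genes). Scaling by total counts moved the medians of all genes to 0.53, 0.39 and 0.51.

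T cells against B cells gave smaller differences in the same direction. 37 of 79 members were higher in CBM (46.8% against 23.3% of genes), 63 of 78 with PBS (80.8% against 22.3%) and 21 of 77 with EtOH (27.3% against 17.9%), and 0 members were lower with edgeR or DESeq2 in any treatment. Medians were 0.38, 0.65 and 0.32. 17 of 77 members were called in all 3 treatments against 14.1% of 11609 genes, among them all 3 stalk proteins, Rps3, Rps6, Rps14, Rps18 and Rpsa. With EtOH, 36 were called without the samples against a label, a count given without the share of all genes.

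Most members had higher levels in B cells than in monocytes, but fewer were called than for T cells. The difference was positive for 67 of 79 in CBM, 72 of 77 with PBS and 70 of 77 with EtOH, and for 65 of 76 in all 3. 5 were negative in all 3, namely Rpl10, Rps27l, Rplp0, Rps27a and Rps9. Called higher in B cells were 22 of 79 members in CBM (27.8% against 26.4% of genes), 39 of 77 with PBS (50.6% against 24.6%) and 40 of 77 with EtOH (51.9% against 29.3%), and lower were 3 (3.80% against 29%), 2 (2.60% against 26.5%) and 4 (5.19% against 31.1%). In CBM the count depended on the samples and the setting. It was 65 of 80 (81.3% against 30.98% of genes) without CBM B cell sample 10 and CBM monocyte samples 10 and 11, the samples with the outlying summed shares. It was 70 of 79 with total count scaling (88.6% against 45.7%), 37 of 79 with the CBM number as a replicate block (46.8% against 28.9%) and 9 of 84 with no filter on low counts (10.7% against 7.28%). In all 3 treatments 15 of 76 members were called higher (18.2% of 11492 genes) and 2 lower (22.8% of genes). The 3 pairs of cell types within a treatment share samples, and so do the comparisons of EtOH and of CBM with PBS.

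Rpl12, which sits at the base of the stalk, had the largest positive difference between T cells and monocytes of the members tested in each treatment (chr2:32961559-32965345, plus strand). It ran from 169 to 476 CPM in CBM T cells with a median of 340, from 187 to 480 CPM in B cells with a median of 205, and from 41.6 to 240 CPM in monocytes with a median of 55.6. The T cell and monocyte ranges overlapped through the highest monocyte sample. The difference of T cells from monocytes was 1.95 in CBM, 1.86 with PBS and 1.74 with EtOH, and that of B cells 1.32, 1.41 and 1.55, all called. The gene Lrsam1 overlaps it on the other strand, and counting by strand is not stated. Rps20, a small subunit protein, differed from monocytes by 1.21, 1.81 and 1.38 in T cells and by 1.00, 1.29 and 1.27 in B cells.

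The stalk proteins did not follow one pattern. Rplp0, the anchor of the stalk, ran from 886 to 1804 CPM in CBM T cells, from 575 to 963 CPM in B cells and from 424 to 739 CPM in monocytes. T cells were above monocytes without overlap and B cells and monocytes overlapped. T cells were higher than B cells by 0.87, 1.01 and 0.68 in CBM, PBS and EtOH. B cells and monocytes differed by -0.13 (SE 0.12), -0.09 (SE 0.18) and -0.14 (SE 0.12), none called.

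Rps27l went most clearly against the family among the abundant members (chr9:66946086-66949516, plus strand). It encodes a close relative of Rps27 that is known as a p53 target. Its level was highest in monocytes, with medians of 108 CPM in CBM, 84.3 with PBS and 66.1 with EtOH, against 62.0, 61.4 and 58.8 CPM in T cells and 47.6, 52.4 and 43.4 CPM in B cells. The groups overlapped in every treatment. T cells were lower than monocytes by edgeR's test in CBM (-1.01, SE 0.22, adjusted p = 0.000244), with PBS (-0.64, adjusted p = 0.0251) and with EtOH (-0.74, adjusted p = 0.00794). B cells were lower too (-1.75, adjusted p = 5.76e-09, then -0.78, adjusted p = 0.00115, and -1.14, adjusted p = 5.12e-05). Scaled by total counts the T cell calls with PBS (-0.30) and EtOH (-0.27) were lost. Both were also lost with no filter on low counts (-0.61 and -0.64).

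Rps27 itself followed the rest of the family. Its medians were 688, 424 and 225 CPM in T cells in CBM, PBS and EtOH, 547, 260 and 175 CPM in B cells, and 193, 112 and 75.7 CPM in monocytes. Counts of Rps27l were therefore a changing percentage of those of Rps27 in the same sample. The median was 9.08% in CBM T cells, 14.5% with PBS and 25.3% with EtOH. In B cells it was 7.52%, 22.7% and 26.5%, and in monocytes 37.4%, 71.1% and 95.3%. These are ratios of counts and not of levels per length, and most of the Rps27 transcript is shared with copies.

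Rpl3l, a relative of Rpl3 known as the form used in heart and skeletal muscle, was low and highest in the monocyte samples here (chr17:24727820-24736143, plus strand). Those samples also hold neutrophil and NK markers, and which of their cells carry Rpl3l was not tested. It ran from 5.22 to 28.0 CPM with a median of 11.7 in CBM monocytes, from 0 to 2.85 CPM with a median of 1.70 in T cells, and from 0 to 3.46 CPM with a median of 0.620 in B cells. The monocyte samples of CBM lay above all T cell and B cell samples. T cells were lower by 3.49 (SE 0.36, adjusted p = 4.28e-09) in CBM, and the differences with PBS and EtOH were -2.72 (adjusted p = 0.00288) and -1.83 (adjusted p = 0.0133). B cells were lower in CBM (-4.22, adjusted p = 1.88e-10) and with EtOH (-3.06, adjusted p = 1.05e-05), and with PBS the gene failed the filter. In PBS monocytes it ran from 0.545 to 10.9 CPM, and the lowest value is that of sample 17, which carries T cell markers. The other 7 stood at 4.74 CPM or more, above all PBS T cell samples (up to 4.12 CPM).

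Rpl10 was level across the cell types (chrX:74270812-74273135, plus strand). Its medians were 132, 154 and 123 CPM in T cells, 109, 112 and 106 CPM in B cells, and 122, 126 and 120 CPM in monocytes, in CBM, PBS and EtOH. Groups overlapped throughout. Relative to all genes it was lower in B cells than in monocytes in each treatment (-0.55, adjusted p = 7.41e-05, -0.41, adjusted p = 0.0343, and -0.47, adjusted p = 0.00791 by edgeR), and by total counts alone the differences were -0.13, -0.14 and -0.08 with no call. The B cell calls with PBS (-0.43) and EtOH (-0.29) were also lost with no filter on low counts. T cells and monocytes differed by -0.24, -0.09 and -0.30, none called. Rps9 was called lower in B cells with EtOH only (-0.35, adjusted p = 0.0156), and this turned to 0.06 under total counts.

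**Figure D4:**
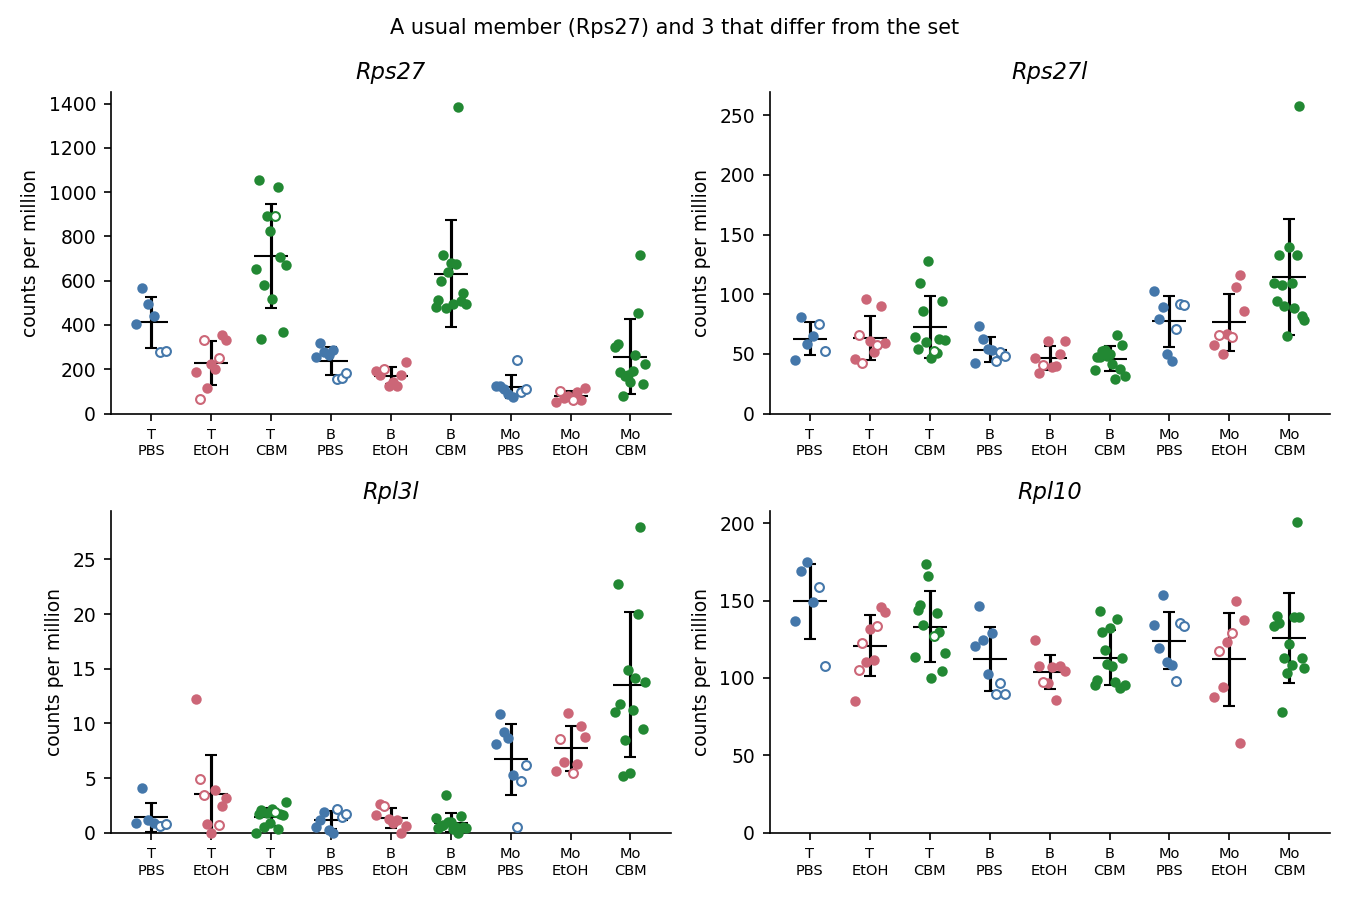
Levels (CPM, linear axes from 0) of Rps27, a member that follows the family, and of Rps27l, Rpl3l and Rpl10 by cell type and treatment, one point a sample, open where it goes against a label, with bars for mean and SD. Rps27 is highest in T cells (median 688 CPM in CBM) and lowest in monocytes (193 CPM), Rps27l and Rpl3l are highest in monocytes (medians 108 and 11.7 CPM), and Rpl10 has similar medians in all 3 (132, 109 and 122 CPM).

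Many genes of the other protein synthesis lists were also higher in T cells than in monocytes, where 32.8%, 20.3% and 21.9% of all genes were higher in CBM, PBS and EtOH. Of 30 ribosome assembly genes 25, 21 and 21 were higher in CBM, PBS and EtOH and 2, 2 and 1 lower, with Nop58 at 1.63, 1.31 and 1.14. Of the 18 genes listed with the translation factors 13, 14 and 11 were higher. Among these 18, Eef1a1 was at 0.95, 1.06 and 0.82, and Npm1, a chaperone of rRNA processing, at 1.13, 1.11 and 0.92. Of 77 mitochondrial ribosomal protein genes 28, 18 and 12 were higher, near or under the background, and 9, 3 and 8 lower. Of the named pseudogenes 42 of 61, 47 of 55 and 26 of 42 were higher. Of 10 regulators of ribosome synthesis 7, 5 and 3 were higher and 1, 1 and 1 lower. Among these 10, Myc had the largest positive difference (2.88, 1.34 and 1.77), and the lowest differences were -3.16, -3.68 and -2.92.

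Within the CBM samples, members rose and fell together from sample to sample. The Spearman correlation of a member with the summed CPM of the others had a median of 0.91 in T cells (12 samples, 82 members), 0.84 in B cells (13 samples, 81 members) and 0.91 in monocytes (13 samples, 80 members). All points share their libraries and scaling, and these values are a description. The lowest in T cells were Rps27l (-0.27) and Rpl3l (-0.25), and in monocytes Rps2 (0.24).

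Rpl35a behaved unlike the others in the CBM samples. Its levels fell into 2 sets with a gap between them, and the same CBM numbers were on the upper side in all 3 cell types. In T cells numbers 1, 2, 4, 10 and 11 stood at 38.3 to 66.1 CPM and the other 7 samples at 7.79 to 15.1 CPM. In B cells numbers 1, 2, 4, 5, 10 and 11 stood at 31.7 to 79.4 CPM and the other 7 at 3.92 to 12.1 CPM, and in monocytes the same 6 numbers at 15.03 to 112 CPM and the other 7 at 3.42 to 7.58 CPM. Number 5 has no T cell sample here. The smallest of the 3 gaps was 0.90 on the log2 scale. The 2 sets do not follow the sex labels, with 4 females among the 6 upper and 4 among the 7 lower samples in B cells. Of the 84 members, Rpl35a was the 1 whose largest gap put the same numbers on the upper side in all 3 cell types. Rpl35a was chosen after its values were seen, and no test was made. The CBM difference of Rpl35a from PBS in T cells (-1.04) mixes both levels, and whether the levels go with an allele or with how reads were mapped was not tested.

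**Figure D5:**
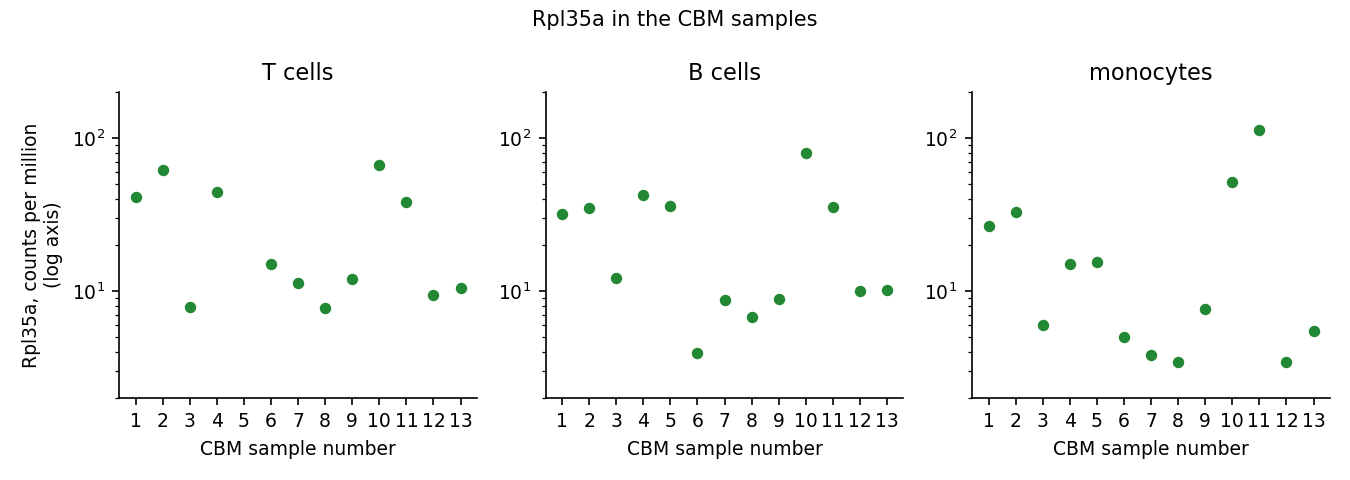
Rpl35a (CPM, log axis) in the CBM samples against the CBM number, 1 panel per cell type, one point a sample. Numbers 1, 2, 4, 10 and 11 are high in all 3 panels, and number 5 in the panels that hold it, for example 31.7 to 79.4 CPM against 3.92 to 12.1 CPM in B cells.

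Rpl26, a large subunit protein that also binds p53 mRNA, was low in runs of consecutive sample numbers of batch 1. With EtOH it was 10.8 CPM in T cell sample 35, 13.4 in B cell sample 36 and 4.80 in monocyte sample 37, and with PBS 23.1 in T cell sample 12, 25.0 in B cell sample 13 and 6.03 in monocyte sample 14. Samples 35, 36 and 37 are all labelled female, and samples 12, 13 and 14 all male. Whether the samples of a run came from the same animal is not stated. B cell sample 36 lay far below the next EtOH B cell sample (54.2 CPM). These are again descriptions, for which Rpl26 was chosen after its values were seen.

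Between female and male CBM samples no member passed the adjusted threshold. edgeR called 0 of 81 members in T cells, 0 of 79 in B cells and 0 of 80 in monocytes, where 0%, 0.0361% and 0.0343% of all genes were called in either direction, and DESeq2 called 0 in each. An unadjusted p under the threshold was found for 2, 0 and 26 members, against 4.57%, 2.12% and 18.6% of all genes. The 26 were in monocytes, where the median of the members was -0.62 and 77 of 80 differences (female minus male) were negative. The lowest p was that of Rpl39 (76.5 ± 16.2 CPM in 8 females, 177 ± 182 in 5 males, adjusted p = 0.168). Without CBM monocyte samples 10 and 11 the median turned to 0.26.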

How the data were processed

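RNA of T cells, B cells and monocytes was read with paired ends of 50 cycles, from cDNA made with the SMART-Seq v4 kit and libraries made with Nextera XT, per the labels' protocols. The table the authors deposited holds whole-number counts per gene that were not normalised. It was made with bcl2fastq, FastQC, HISAT2 2.1.0 (GRCm38) and HTSeq 0.11.2, per the submitters' processing notes. The labels name a human annotation, but 53360 of 53465 gene identifiers (99.8%) are in the mouse annotation GENCODE M21, from which coordinates and transcripts were taken. Treatment of reads that fit several genes, and strand, are not given in the sources used here. 3 lines that name no gene were left out, and 26 symbols turned into dates were recovered by identifier.

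39 pairs of repeat libraries, which differed by a chi-square per gene of 1.1 to 1.32 (genes with at least 20 counts), were summed, so that 124 libraries gave 85 samples. CPM are counts per 1000000 of a sample, without TMM, and fitted differences are TMM scaled. Each comparison was fitted over all genes with edgeR 4.0.16 in R 4.3.3 (quasi-likelihood F test, TMM, filterByExpr by group, with minima of 10 counts and of 15 in total), with sex as a term except in comparisons of sexes. A Benjamini-Hochberg adjusted p under 0.05 was a call. On simulated counts the median estimates of the fits came close to the changes set, in genes that were not of low count. Changes as small as the members' median differences between EtOH and PBS were not simulated. Labels were checked with Xist, 4 Y-linked genes and cell type markers. Alternatives were DESeq2 1.42.0, other scalings and filters, no sex term, first libraries alone, samples left out and a replicate block. RefSeq sequences are of GRCm38.p6. Named members are those called with the lowest p (up to 6 per direction), those of opposite sign to the median, the ends of the level range, the stalk proteins and those described as chosen after their values were seen. Members, lists and the leaving out of samples against a label between EtOH and PBS were chosen with earlier results of these data known.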

Additional observations from a re-analysis of the deposited data

Results flagged for a closer look

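In groups of 4 to 10 samples, the highest and lowest sample of the summed share and of 11 members were compared with the rest by Dixon's gap ratio at the 95% level. These 12 measures in 6 groups of samples made 72 sets of values, and 10 held such a sample, where chance gives about 1 in 20. The sets share their samples, and that rate does not apply to Rpl35a and Rpl26, which were chosen after their values were seen.

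4 of the 10 concern PBS monocyte sample 17, whose markers are those of T cells. Its summed share was 1.12% against 0.682% in the next sample, Rpl12 65.9 against 33.3 CPM, Rpsa 103 against 68.7 CPM and Rpl17 14.7 against 6.21 CPM. EtOH T cell sample 29, with monocyte markers, had Rpl39 at 8.81 CPM against 34.8 in the next lowest. 2 more samples go against their sex label: EtOH T cell sample 32 with Rpl35a at 60.3 CPM (next 25.4) and EtOH B cell sample 33 with Rpl12 at 98.7 CPM (next 70.5).

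The other 3 samples match their labels. Rpl3l was 12.2 CPM in the shallow EtOH T cell sample 23 (next 4.92) and 4.12 CPM in PBS T cell sample 4 (next 1.16), and Rpl26 was 13.4 CPM in EtOH B cell sample 36 (next lowest 54.2).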

How the results depend on the processing

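Of 262 counts of called members under other settings 224 were equal to the value reported or within 1.5 times of it. Equal counts include 0 beside a reported 0, as in the leave-out fits of EtOH against PBS over all samples. All 18 summed shares were within 1 SD of theirs. Of 1020 differences of named members 964 kept direction and call, 55 lost the call and 1, Rps9 in B cells against monocytes with EtOH, changed sign (0.0553 with total count scaling). The cause was not tested in any case.

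For EtOH against PBS, DESeq2 called 3 members in T cells and no filter on low counts 2 in B cells. With the samples against a label left out, T cells gave 2 with total count scaling, 27 with DESeq2, 17 with no filter and 2 with the filter given the design. B cells gave 12 with total count scaling, and monocytes 1 with no filter. Leaving out each sample in turn gave 0 to 7 in T cells and 0 to 51 in B cells with those samples left out, and 0 in the other 4 comparisons.

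Counts here are of members called in either direction, and counts in this section stand without the shares of all genes. For B cells against monocytes, CBM (25 as reported) gave 72 with total count scaling, 12 with no filter, 44 with the filter given the design, 68 without the samples that stand apart and 40 with the CBM number as a replicate block. PBS gave 7 with no filter. EtOH gave 70 with total count scaling, 29 with no filter and 28 without the samples against a label. T cells against B cells with EtOH gave 3 with no filter and 36 without the samples against a label, and T cells against monocytes with EtOH 32 with no filter. Between the sexes no filter called 3 in monocytes. The filter given the design and the samples that stand apart were chosen after seeing the data.

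CBM numbers return across cell types, but same-numbered samples did not always deviate together. Correlations over 12 pairs of T and B cells ran from -0.25 to 0.58, with 6 samples closest to their own number. Over 12 pairs of T cells and monocytes they ran from -0.17 to 0.59, with 6, and over 13 pairs of B cells and monocytes from -0.11 to 0.66, with 5. The replicate block gave 36 members for T against B cells and 68 for T cells against monocytes. Near-identical copies, the shallow EtOH sample 23 and the batch of the CBM samples limit what the levels show.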
